A study of Mus musculus with 4 samples.

Results

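Sprr1a, Sprr1b, Sprr3, Sprr4, Ivl, Tgm1, Evpl and Ppl encode precursors of the cornified envelope and the enzyme that joins them. They were followed in Dalton's lymphoma ascites (DLA), a mouse tumour passed from animal to animal that lives unattached in the peritoneal fluid. The members were all probe sets that the platform annotation pairs with these 8 symbols. That gave 8 probe sets, 1 for each gene, of 35556 on the array, and 0 that list a member together with other genes. In the gene table they were 8 of 19938 genes. The group was put together with the difference between irradiated and control cells already known, so the members were chosen by the log2 differences of this same contrast. Their differences are therefore a description and carry no test.

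Both groups were male Swiss albino mice of 4 to 5 months that carried DLA cells in the peritoneal cavity. The irradiated group received 2 Gy of electron radiation to the whole body on day 8 after transplantation, and its cells were collected 48 h later, so the host was exposed together with the tumour. The control group was not irradiated. Each group had 2 arrays, labelled biological replicates 1 and 2. The labels do not state how many mice went into each array, and their protocols describe no sorting of the collected cells. If replicates shared animals or cultures, the p-values would measure technical spread alone.

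The cornified envelope is the layer of cross-linked protein that replaces the plasma membrane of a keratinocyte as it dies at the skin surface. Envoplakin and periplakin, encoded by Evpl and Ppl, form a scaffold under the membrane, and involucrin, encoded by Ivl, is laid down on it early. The small proline-rich proteins of the Sprr genes act as bridges between the other precursors, and transglutaminase 1, encoded by Tgm1, makes the cross-links. The Sprr genes and Ivl lie together in the epidermal differentiation complex on chromosome 3. Promoters of the human SPRR1B and IVL genes are known to bind AP-1, a dimer of JUN and FOS family proteins, and Sprr1a is known as a gene induced by injury in nerve and heart.

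The promoters of the 3 members that were higher in irradiated cells are shown, with that of Sprr3, their neighbour in the same cluster, for comparison. Each is the 250 bases before the gene's start in RefSeq on build GRCm38.p6, written 5′ to 3′ in the direction of the gene. Capitals mark matches to TGANTCA, searched on both strands, of which no 2 overlapped. Here N is any base, which makes it a looser form of the AP-1 motif, whose usual base there is C or G.
Sprr1a promoter, chr3:92485882-92486131, minus strand: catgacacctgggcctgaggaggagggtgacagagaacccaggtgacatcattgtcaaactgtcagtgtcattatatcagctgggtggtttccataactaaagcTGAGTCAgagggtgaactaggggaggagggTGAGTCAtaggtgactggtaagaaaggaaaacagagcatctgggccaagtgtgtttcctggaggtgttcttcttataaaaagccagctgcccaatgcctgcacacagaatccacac
Sprr1b promoter, chr3:92438780-92439029, minus strand: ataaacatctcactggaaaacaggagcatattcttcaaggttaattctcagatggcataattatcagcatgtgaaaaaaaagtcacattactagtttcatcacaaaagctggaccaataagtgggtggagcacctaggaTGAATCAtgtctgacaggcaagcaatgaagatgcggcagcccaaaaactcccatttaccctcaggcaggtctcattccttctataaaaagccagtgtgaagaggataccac
Ivl promoter, chr3:92573736-92573985, minus strand: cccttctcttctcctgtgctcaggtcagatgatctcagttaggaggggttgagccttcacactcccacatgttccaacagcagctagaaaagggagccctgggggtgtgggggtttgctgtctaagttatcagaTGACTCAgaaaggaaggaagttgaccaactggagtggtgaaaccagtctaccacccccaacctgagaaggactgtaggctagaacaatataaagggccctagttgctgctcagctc
Sprr3 promoter, chr3:92458721-92458970, minus strand: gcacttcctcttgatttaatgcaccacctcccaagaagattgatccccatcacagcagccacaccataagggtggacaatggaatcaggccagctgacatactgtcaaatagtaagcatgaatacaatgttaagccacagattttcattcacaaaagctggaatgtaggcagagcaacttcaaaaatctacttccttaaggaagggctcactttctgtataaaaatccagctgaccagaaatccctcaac
Sprr1a held 2 matches, whose first bases lay 146 and 116 bases before the start. Sprr1b held 1 match at 111 bases and Ivl 1 at 116 bases. The match of Sprr1b has A in place of N and so fits the looser form alone, while those of Sprr1a and Ivl have G or C. Sprr3 held 0 matches in this window, as did Sprr4 and both listed starts of Tgm1. RefSeq promoters were found for 6 of the 8 members, those of Evpl and Ppl not being among them. Of 32850 promoter windows of the same length, 6.75% held at least 1 match and 0.338% at least 2. A match is a stretch of letters and not a measured binding site.

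The 4 arrays did not spread equally. Over all genes, replicate 2 minus replicate 1 had an SD of 0.362 on the log2 scale between the irradiated arrays and 0.167 between the control arrays. Values are RMA intensities of a probe set on the log2 scale, in which 1 unit is a 2-fold difference. The median gene lay between 6.64 and 6.72 on each array. The brightness of a probe set depends on its probes, so levels are compared between arrays and not between genes. No depth applies to arrays, and their number limited the precision.

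Sprr1a, a small proline-rich precursor, was the member that stood clearly above the controls on both irradiated arrays. It measured 8.80 and 10.90 in irradiated replicates 1 and 2, against 7.07 and 7.10 in control replicates 1 and 2. The groups did not overlap, and the 2 irradiated arrays were far apart from each other. Irradiated replicate 1 was 3.28-fold and irradiated replicate 2 was 14.1-fold above the control mean. The group means were 9.85 ± 1.48 in irradiated and 7.085 ± 0.02 in control cells (SD, n = 2 arrays each), a difference of 2.765 or 6.80-fold. Sprr1a ranked 10 of 19938 genes by the difference from the control mean in irradiated replicate 1 and 10 in irradiated replicate 2.

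Sprr1b, its close relative in the same cluster, was carried by a single array. It measured 6.67 and 11.36 in irradiated cells and 6.02 and 6.28 in control cells. Irradiated replicate 2 was 37.0-fold above the control mean and irradiated replicate 1 was 1.43-fold above it, so the mean difference of 2.865 describes neither array. The irradiated arrays differed from each other by 4.69, which is 25.8-fold, and the control arrays by 0.26. By the difference from the control mean Sprr1b ranked 548 of all genes in irradiated replicate 1 and 4 in irradiated replicate 2. By its gap of 4.69 above every other array, irradiated replicate 2 placed it 4 among all genes.

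Ivl, the involucrin gene, was likewise highest in irradiated replicate 2, at a smaller size. It measured 6.08 and 7.78 in irradiated cells, against 5.71 and 5.60 in control cells, and the groups did not overlap. The means were 6.93 ± 1.20 in irradiated and 5.655 ± 0.08 in control cells (SD, n = 2 arrays each), a difference of 1.275 or 2.42-fold. Irradiated replicate 2 was 4.36-fold and irradiated replicate 1 was 1.34-fold above the control mean. Its ranks by that difference were 843 in irradiated replicate 1 and 38 in irradiated replicate 2.

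**Figure D1:**
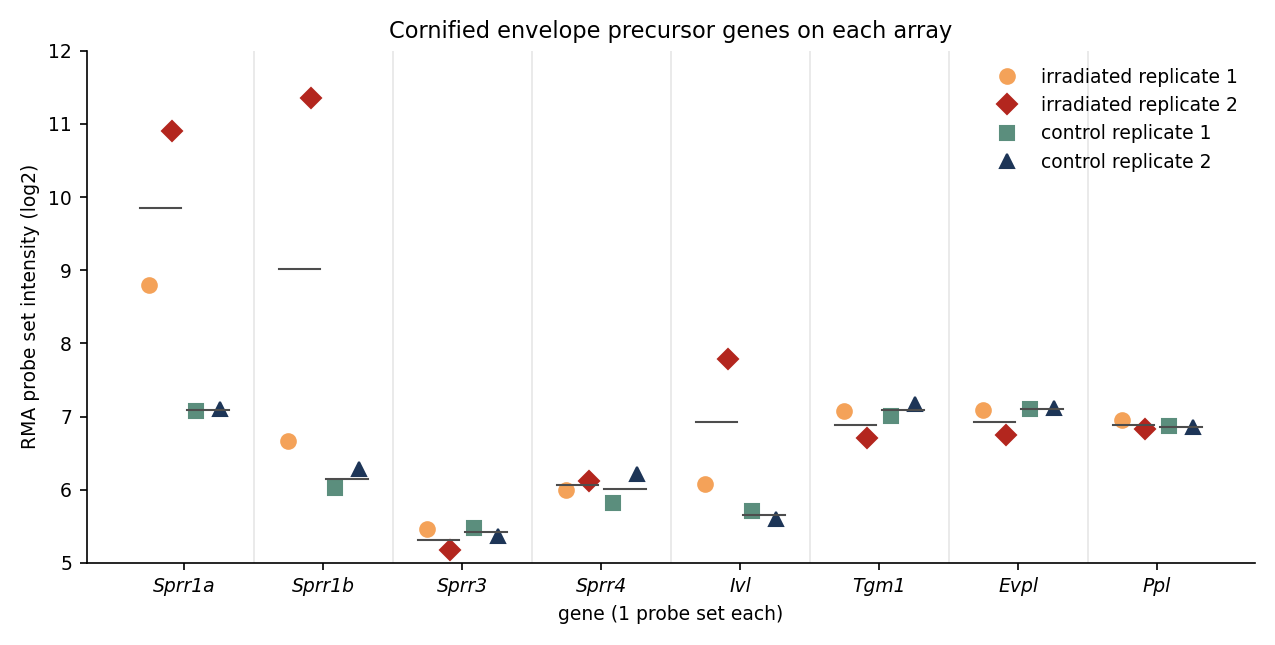
RMA intensity (log2) of the 8 members on each of the 4 arrays, with irradiated arrays left of control arrays and grey bars at the mean of each group. Irradiated replicate 2 stands highest for Sprr1a, Sprr1b and Ivl, irradiated replicate 1 is well above the controls for Sprr1a alone, and the other 5 genes span at most 0.46 over the 4 arrays.

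The remaining Sprr members did not share this pattern, although Sprr3 lies between Sprr1b and Sprr1a in gene order and Sprr4 between Sprr1a and Ivl. Sprr3, a proline-rich precursor of internal stratified epithelia, measured 5.46 and 5.17 in irradiated and 5.47 and 5.37 in control cells. Sprr4 measured 6.0 and 6.12 in irradiated and 5.82 and 6.21 in control cells. The arrays of both groups overlapped for each gene, and the differences were −0.105 for Sprr3 and 0.045 for Sprr4.

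The enzyme and the scaffold genes did not move with Sprr1a either. Tgm1, the cross-linking enzyme, measured 7.07 and 6.71 in irradiated and 7.01 and 7.17 in control cells, with overlapping groups and a difference of −0.20. Ppl, the periplakin gene, measured 6.95 and 6.83 in irradiated and 6.87 and 6.85 in control cells, a span of 0.12 over all arrays. Evpl, its partner in the scaffold, measured 7.09 and 6.75 in irradiated and 7.10 and 7.11 in control cells. Its irradiated arrays lay below both controls, irradiated replicate 1 by 0.01, the last digit of the table.

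Counted over the group, 3 members had both irradiated arrays above the controls, 1 had both below, and 4 overlapped. Over all genes the groups were separate for 41.7%, higher in irradiated cells for 17.8% and lower for 23.9%. Nothing is read from that comparison, because it was the one that chose the members. The median difference was 0.0375 over the 8 members and −0.03 over all genes, so the middle of the group lay near that of all genes. The 3 members above the controls all differed by at least 1.5-fold, as did 1.97% of all genes. Irradiated replicate 2 was at least 1.5-fold above both controls for 3 members, where 3.73% of all genes were. Irradiated replicate 1 was so for 1 member, Sprr1a, where 1.64% of all genes were. In irradiated replicate 2 the 3 genes Sprr1a, Sprr1b and Ivl were at least 2-fold above every other array, as were 114 genes or 0.572% of those tested.

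**Figure D2:**
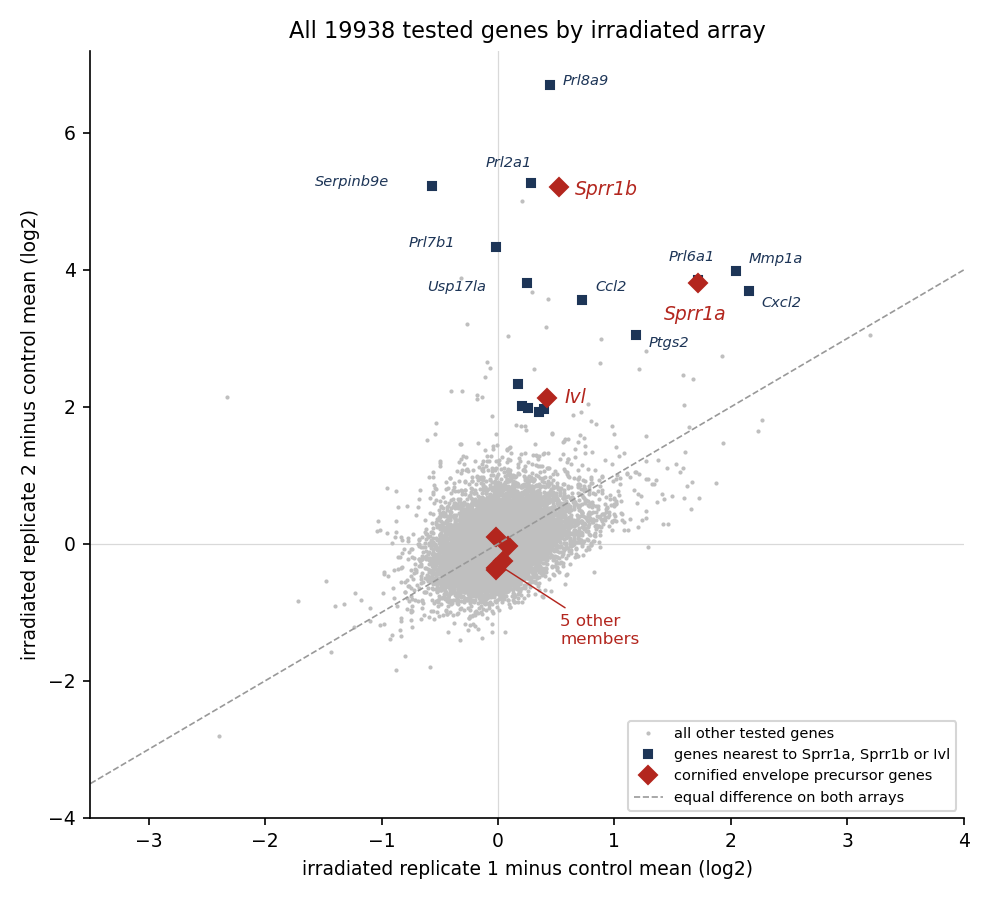
Difference from the control mean (log2) in irradiated replicate 1 (horizontal) and irradiated replicate 2 (vertical) for all 19938 genes. Points above the dashed line are higher in irradiated replicate 2; Sprr1b and Ivl lie close to the vertical axis, Sprr1a lies at 1.715 and 3.815, and the other 5 members lie in the bulk of genes.

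The genes whose pattern came nearest to each of the 3 members were found by the distance between their deviations from their own control mean over the 4 arrays. For Sprr1a the nearest was Prl6a1, of the placental prolactin family, at a distance of 0.042 on the log2 scale. It was 1.715 above its control mean in irradiated replicate 1 and 3.855 in irradiated replicate 2. The next were the collagenase Mmp1a (0.397), the neutrophil-attracting chemokine Cxcl2 (0.457), the inducible cyclooxygenase Ptgs2 (0.927) and the monocyte-attracting chemokine Ccl2 (1.02). For Sprr1b the nearest were the prolactin family genes Prl2a1 (0.241) and Prl7b1 (1.02), the serpin Serpinb9e (1.13), Usp17la (1.49) and Prl8a9 (1.53). Prl2a1 measured 5.63 and 10.61 in irradiated and 5.22 and 5.47 in control cells. Sprr1b lay farther from Sprr1a (1.84) than from any of these 5 genes. For Ivl the nearest were the interleukin 1 family gene Il1f6 (0.222), Olfr1436 (0.271), the cystine transporter Slc7a11 (0.293), the endocytic adaptor Dab2 (0.302) and the chemokine Ccl7 (0.342). With 4 arrays, such likeness describes these libraries.

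In gene order the higher values fell in 1 stretch of the epidermal differentiation complex. Of its 62 tested genes from S100a1 to S100a10, irradiated replicate 2 was at least 1 above the control mean (2-fold) for 8 and irradiated replicate 1 for 1. Over all genes these shares were 1.10% and 0.406%. Of the 8, 7 lay among the 16 genes from Prr9 to Ivl, namely Prr9, Sprr2e, Sprr2h, the pseudogene Sprr2j-ps, Sprr1b, Sprr1a and Ivl. These genes were singled out after their values were seen. Sprr1b, Sprr1a and Ivl among them are members chosen by this same contrast, and the 1 gene of irradiated replicate 1 is Sprr1a. Nothing is therefore read from these counts against the shares of all genes. Among the other 46 genes the exception was Lce1g, at 1.08, whose probe set measured 3.10 and 4.08 in irradiated and 2.93 and 3.07 in control cells.

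The Sprr2 genes, small proline-rich precursors next to Sprr1b, followed irradiated replicate 2 more than replicate 1. Sprr2h measured 4.92 and 7.56 in irradiated and 5.10 and 4.88 in control cells, so irradiated replicate 1 lay within the controls and irradiated replicate 2 was 5.94-fold above their mean. Sprr2e measured 4.54 and 6.67 in irradiated and 5.28 and 5.02 in control cells, lower than both controls in irradiated replicate 1 and higher in replicate 2. Sprr2j-ps measured 4.78 and 6.20 in irradiated and 4.54 on both control arrays. Of 12 probe sets that list a Sprr2 gene, irradiated replicate 2 was at least 2-fold above the control mean for 6 and irradiated replicate 1 for 0. Over all genes, each by its brightest probe set listing 1 gene, these shares were 1.10% and 0.406%. The 12 include 3 that list several genes and have no counterpart in those shares. The 6 include 1 pair with identical values on all arrays. Of the 9 probe sets that list 1 gene alone, irradiated replicate 2 was so for 3. Probe sequences were not used here, and near-identical Sprr2 copies can share signal.

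**Figure D3:**
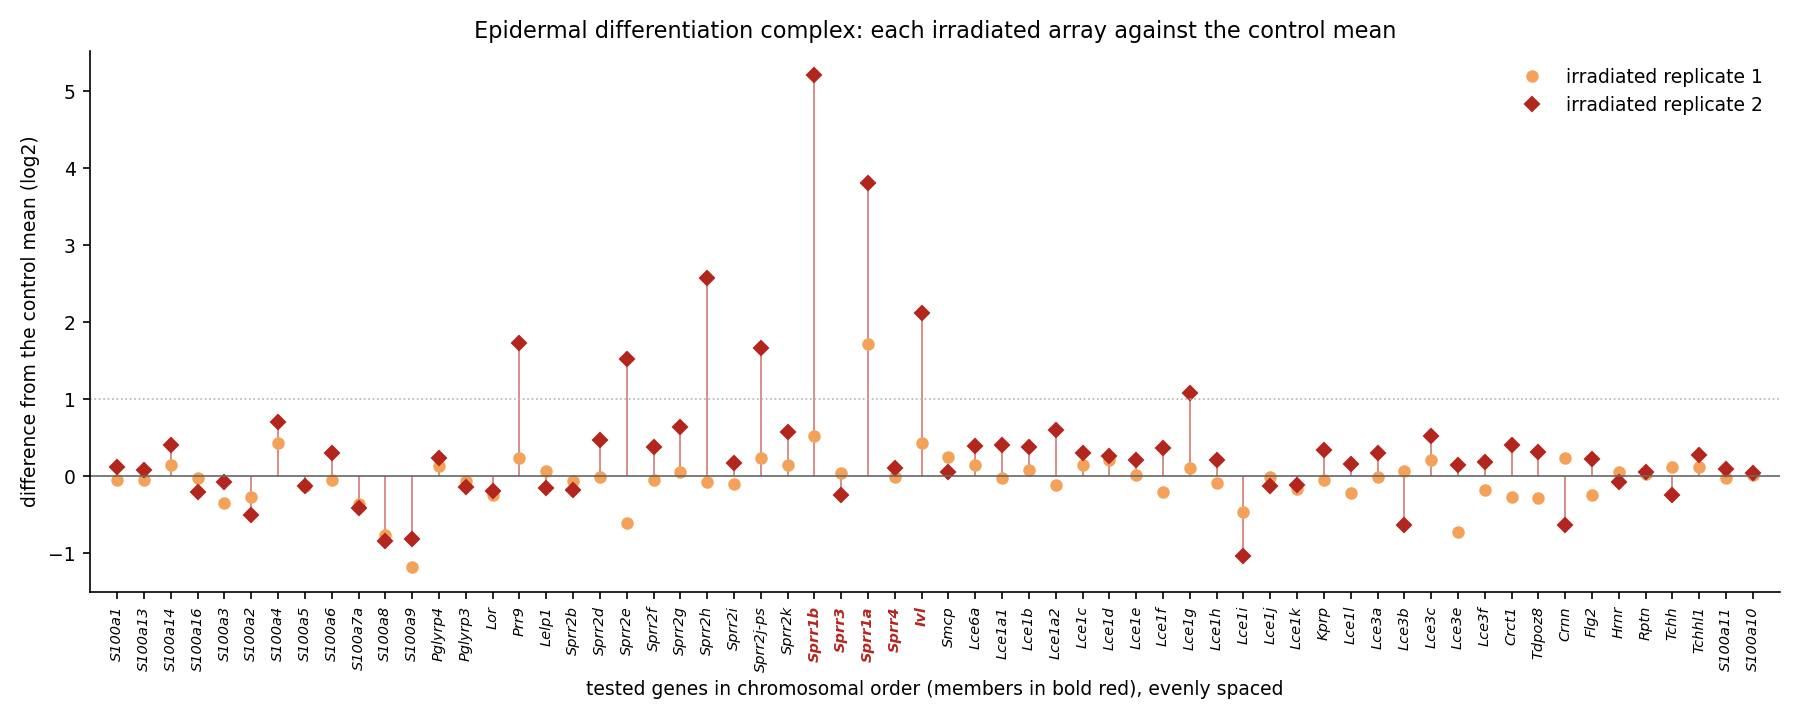
Difference of each irradiated array from the control mean (log2) for 62 tested genes of the epidermal differentiation complex on chromosome 3, evenly spaced in gene order, members in bold red. Irradiated replicate 2 exceeds the dotted line at 1 for 8 genes, 7 of them between Prr9 and Ivl, and irradiated replicate 1 exceeds it for Sprr1a.

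Other genes of epidermal differentiation were read from a limma fit of irradiated against control cells over all 19938 genes. In that fit 1 gene passed an adjusted p of 0.05 (0.00502% of genes), and 0 of the 160 genes on 7 related lists did. The 1 gene was Ly6g, a neutrophil surface marker (limma adjusted p = 0.0117). At an unadjusted p under 0.05, 2055 of all genes (10.3%) and 20 of the 160 passed. With a difference of at least 1.5-fold as well, 473 genes passed, 2.37% of all, with 1.7% higher and 0.672% lower in irradiated cells. Of the 160 listed genes 9 passed, 5 higher and 4 lower, which is 5.63%. Their median difference was 0.0225, against −0.03 over all genes. The lists were chosen with earlier results of these data known, so nothing is read from their shares against those of all genes. Leaving out control replicate 1 gave 315 genes in place of 473, and leaving out irradiated replicate 1 gave 1558. The count of 9 became 5 without either control array and 24 without irradiated replicate 1. The adjusted p-values below are from limma, with Benjamini-Hochberg correction across the 19938 genes, and those of the listed genes did not pass.

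Among 42 other structural proteins of the envelope, 0 passed higher and 1 lower, around a median of 0.0975. The 1 was Lce1i, a late envelope protein, at 4.58 and 4.01 in irradiated and 5.13 and 4.97 in control cells, a difference of −0.755 ± 0.21 (SE, limma adjusted p = 0.41), and the call was lost without either control array and without irradiated replicate 2. Prr9, a proline-rich gene of the complex, measured 4.82 and 6.31 in irradiated and 4.40 and 4.77 in control cells (limma adjusted p = 0.543). Sprr2k differed by 0.36 and Lce1d by 0.235 without passing. Cnfn, which encodes cornifelin, was the brightest of the list, at 13.02 and 12.02 in irradiated and 12.64 and 12.89 in control cells, with overlapping groups. Lce1j, the next brightest, differed by −0.07. Lor, which encodes loricrin, the main protein of the mature envelope, measured 4.55 and 4.60 in irradiated and 4.79 on both control arrays.

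Transglutaminases other than Tgm1, and plakins and desmosomal proteins other than Evpl and Ppl, had no gene past the unadjusted and fold thresholds, 0 of 7 and 0 of 19. Tgm2, the widely expressed tissue transglutaminase, measured 8.96 and 8.03 in irradiated and 9.05 and 8.97 in control cells (limma adjusted p = 0.599), lower in irradiated replicate 2 than elsewhere. Tgm5, which also acts on envelope proteins, differed by 0.12, Tgm6 by −0.405 and Tgm7 by −0.27. Dsp, which encodes desmoplakin, the plakin that anchors keratins at desmosomes, measured 10.64 and 10.85 in irradiated and 10.41 and 10.63 in control cells. Jup, which encodes plakoglobin of the same plaque, differed by 0.045. The desmosomal genes Perp and Cdsn differed by −0.595 and −0.265, and Pkp4 by 0.35 (limma adjusted p = 0.443), the last at an unadjusted p of 0.027 but less than 1.5-fold.

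The keratins of stratified epithelium did not accompany Sprr1a. Of 19 measured, 0 passed in either direction, and the median difference was −0.085. Krt75, Krt6b, Krt23 and Krt10 had the smallest p-values, with differences of −0.24, −0.27, −0.315 and −0.28. Krt80 and Krt79, the brightest of the list, differed by −0.22 and −0.085. Krt5 and Krt14, the pair of basal keratinocytes, differed by −0.155 and −0.075. Of proteases and lipid enzymes of the skin barrier, 0 of 29 passed higher and 1 lower. It was the serpin Serpinb5, at 5.49 and 5.32 in irradiated and 6.34 and 6.21 in control cells (difference −0.87, standard error 0.13, limma adjusted p = 0.241). Ctsl, Klk7 and Cers3, which encode cathepsin L, a protease of skin shedding and a ceramide synthase, differed by 0.375, 0.39 and 0.565. Ctsd, which encodes cathepsin D and was the brightest, differed by 0.18.

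Of 13 S100 genes, which encode calcium-binding proteins and flank the Sprr cluster, 0 passed higher and 2 lower. S100a9 measured 5.66 and 6.02 in irradiated and 6.67 and 7.01 in control cells, a difference of −1.0 ± 0.19 (SE, limma adjusted p = 0.294). S100a8, its partner in calprotectin, differed by −0.80 (limma adjusted p = 0.373), a call lost without control replicate 2 and without either irradiated array. Both genes also mark neutrophils. S100a4 and S100a7a differed by 0.57 and −0.385. S100a10 and S100a11, envelope components and the brightest of the list, differed by 0.03 and 0.035.

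**Figure D4:**
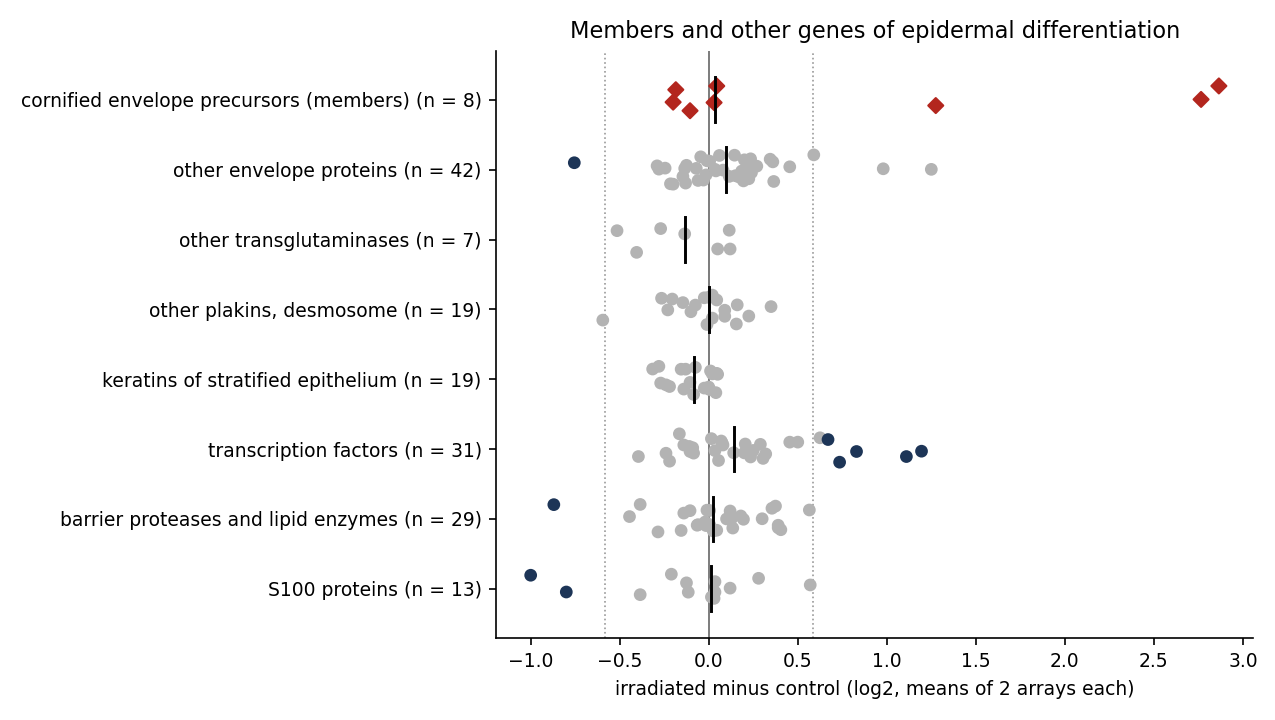
Irradiated minus control (log2 difference of means of 2 arrays each) for the 8 members (red diamonds) and the genes of 7 related lists (circles), with the median of each as a black bar and dotted lines at 1.5-fold. Dark circles passed an unadjusted limma p of 0.05 and 1.5-fold: 5 transcription factors higher, and 1 envelope gene, 1 barrier gene and 2 S100 genes lower.

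The listed regulators of envelope genes, transcription factors apart from Keap1, held all 5 listed genes that passed higher, of 31 measured, with 0 lower. Their median difference was 0.14, and 1.7% of all genes passed higher. Nothing is read from that comparison, because this list was chosen with earlier results of these data known. The 5 were all of the AP-1 family or close to it. Jun measured 10.27 and 9.81 in irradiated and 8.87 and 8.99 in control cells, a difference of 1.11 ± 0.18 (SE, limma adjusted p = 0.259). Fos measured 9.37 and 8.31 in irradiated and 7.58 and 7.71 in control cells, a difference of 1.195 ± 0.34 (SE, limma adjusted p = 0.414). The groups did not overlap for either gene. Fosl2 and Junb differed by 0.67 and 0.735 (limma adjusted p = 0.295 and 0.373). Atf3, a stress-induced factor named because it completes the 5, differed by 0.83 (limma adjusted p = 0.452). Its calls under the alternatives were not summarised. The settings counted next kept the 1.5-fold threshold and leave out the fold of 2. Fosl2, Junb and Atf3 each differed by less than 2-fold and do not pass there. Jun passed in 11 of 11 alternative settings, Fosl2 in 10, and Fos and Junb in 9 each. Fos was lost without either control array, Junb without control replicate 1 or irradiated replicate 1, and Fosl2 without irradiated replicate 1. Over the whole list the irradiated arrays lay above both controls for 13 genes, below both for 3, and overlapped for 15. Among other factors of epithelial differentiation Tfap2a differed by 0.50, Gata3 by 0.32 and Grhl2 by 0.305, each at an unadjusted p under 0.05 but less than 1.5-fold. Klf4, Grhl3 and Trp63 differed by 0.075, −0.165 and 0.035. Klf5 and Nfe2l2, the brightest of the list, differed by 0.055 and 0.20.

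The AP-1 genes and the 3 envelope genes ordered the 2 irradiated arrays differently, although the 3 envelope genes and Jun, Junb, Fos, Fosl2 and Atf3 lay above both controls on each of them. Of 8 AP-1 family genes on the list, all 8 were higher in irradiated replicate 1 than in irradiated replicate 2, as were 53.3% of all genes. Sprr1a, Sprr1b and Ivl were higher in irradiated replicate 2 by 2.10, 4.69 and 1.70. Fosb measured 10.33 and 9.0 in irradiated and 9.07 and 9.01 in control cells, so irradiated replicate 2 lay next to the controls. Fosl1, known to act on the involucrin promoter in human keratinocytes, measured 10.49 and 10.29 in irradiated and 10.28 and 10.34 in control cells. Jund lay below both controls, at 9.73 and 9.57 in irradiated and 10.05 and 10.04 in control cells. The 8 AP-1 genes were set apart from their list after their values were seen.

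**Figure D5:**
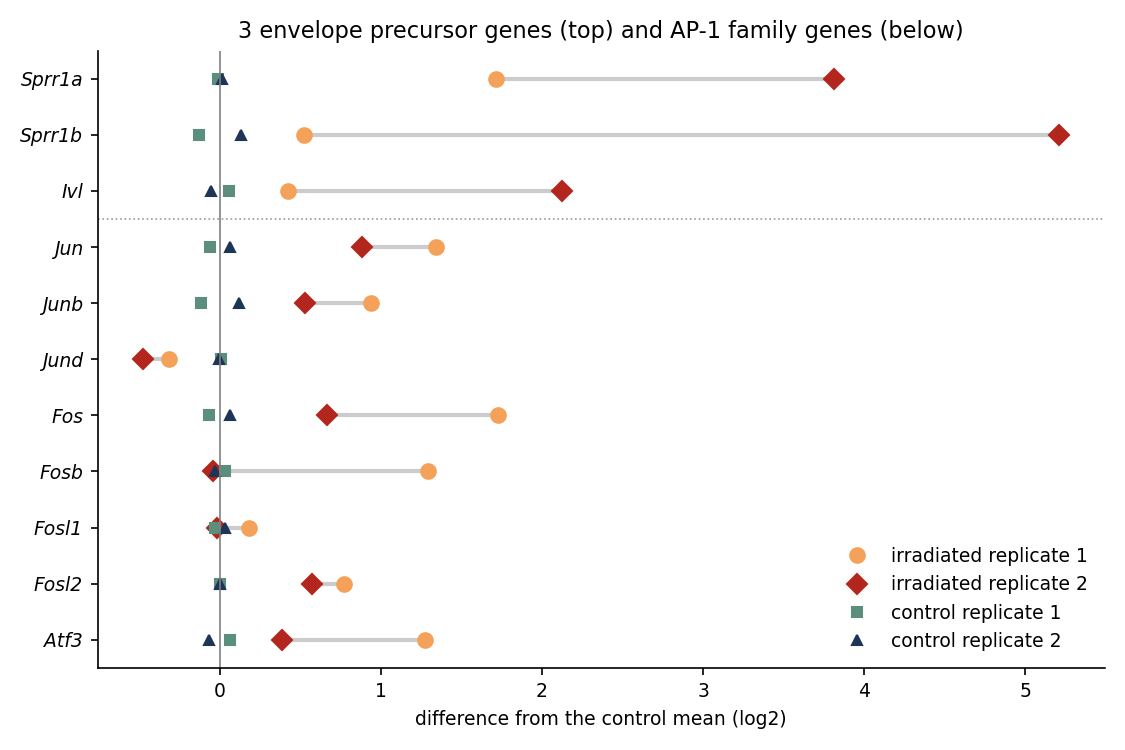
Difference from the control mean (log2) on each array for Sprr1a, Sprr1b and Ivl (above the dotted line) and 8 AP-1 family genes (below it), with a grey line joining the 2 irradiated arrays. Irradiated replicate 2 is the higher irradiated array for the 3 envelope genes, and irradiated replicate 1 for all 8 AP-1 genes.

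Markers of cell types were read on the same arrays. The cells are labelled a lymphoma. Of 11 T cell markers 0 had a mean above the median gene, with Cd3e, Thy1 and Cd5 the brightest. Of 7 B cell markers 0 did, with Cd79b, Pax5 and Vpreb1 the brightest. Probe sets differ in brightness, so a dim one does not show that a gene is silent, and these levels do not settle what the cells are. Of 8 pan-leukocyte markers 3 had a mean above the median gene. Of 8 simple epithelium markers 6 did, with Krt8, Krt18 and Krt19 the brightest. Krt8, a keratin of simple epithelium, measured 13.93 and 13.30 in irradiated and 14.07 and 14.11 in control cells. Of 11 matched keratinocyte markers 2 had a mean above the median of all genes, Itga6 and Itgb4, and 0 passed the unadjusted and fold thresholds. The summed linear intensity of the 11 ran from 4686 to 5620 in irradiated and from 4522 to 4615 in control arrays, most of it Itga6. Krt5 measured 6.01 and 5.61 in irradiated and 6.01 and 5.92 in control cells. Krt14 measured 6.05 and 6.13 in irradiated and 6.08 and 6.25 in control cells.

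Some marker lists moved with the irradiated arrays. Of 8 simple epithelium markers 4 passed lower and 0 higher, and their summed linear intensity was 22910 to 34612 in irradiated and 41903 to 42416 in control arrays, lowest in irradiated replicate 2. Of 12 neutrophil markers 3 were higher and 9 lower in irradiated cells, with a median difference of −0.3325, and 2 passed higher and 5 lower. Their summed intensity was nevertheless 4830 to 5622 in irradiated and 1526 to 1650 in control arrays. In the irradiated arrays most of that sum was the single gene Ly6g, at 12.04 and 11.89 in irradiated and 8.87 and 8.82 in control cells. Of 8 macrophage markers, with Cd68, Cd14 and Lyz2 the brightest, 1 passed higher and 0 lower (1091 to 1203 in irradiated, 1076 to 1086 in control arrays), and of 9 trophoblast markers, with Eomes, Gata3 and Cdx2 the brightest, 0 passed (2169 to 2185 in irradiated, 1803 to 1837 in control arrays). Of 7 mesothelial markers 1 passed, lower. It was Krt19, which is also on the simple epithelium list and among the 4 that passed lower there. Pan-leukocyte markers (brightest Lcp1, Itgb2 and Rac2) passed in 1 higher and 1 lower of 8, and erythroid markers in 1 of 6, lower. The part of these cells in the values of Sprr1a, Sprr1b and Ivl was not tested. In bulk RNA, more cells of a type and more RNA per cell cannot be told apart.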

How the data were processed

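Total RNA of 4 samples was labelled with biotin and hybridised to one-colour arrays, per the labels' protocols. The deposited values are log2 probe set intensities made with RMA, per the submitters' processing notes; no version, genome build or annotation is given in the labels read here. RMA gives the probes of all arrays 1 common distribution before they are summarised, so array medians can still differ a little, and it shrinks the folds of dim genes. Of 35556 probe sets, 21789 had 1 gene symbol, 1621 several and 12146 were not listed. Symbols were updated through Entrez identifiers in the RefSeq table of GRCm38.p6. The brightest probe set of each of 19938 genes was fitted in R 4.3.3 with limma 3.58.1 (lmFit, eBayes, two-sided, Benjamini-Hochberg), with 2 residual degrees of freedom and a prior of 3.48. A second threshold took an unadjusted p under 0.05 and 1.5-fold. The fit was tested on simulated data.

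The members and gene lists were chosen with earlier results of these data known. Of 171 symbols on 7 pathway lists, 160 had a probe set of their own. The text names all members, of each list up to 4 genes with the smallest p and the 2 brightest, of marker lists at most the 3 brightest, and the 5 genes nearest to each member that spans at least 1 over the arrays, with predicted genes left out. Genes named beyond this, such as Lor, Krt5, Krt14, Klf4, Grhl2, Grhl3, Gata3, Tfap2a, Trp63, Sprr2e, Sprr2h, Sprr2j-ps and further AP-1 genes, were picked once their values had been seen. Promoters were read from RefSeq. No slide or scan date was used here, and batches were not tested. Alternatives were quantile normalization, centring, 2 filters on dim genes, the mean of probe sets, eBayes with trend, the replicate number as a block, a fold of 2 and each array left out.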

Additional observations from a re-analysis of the deposited data

Results flagged for a closer look

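Probe sets that list several Sprr2 genes stayed outside the fit, since no single gene can be named for them, and showed signal above the control level. The probe set listing Sprr2a1, Sprr2a2, Sprr2a3 and Sprr2b measured 7.65 and 9.92 in irradiated and 7.28 and 7.36 in control cells, a difference of 1.465. In irradiated replicate 2 it was 6.06-fold and in irradiated replicate 1 it was 1.26-fold above the control mean. A pair of probe sets listing Sprr2a1 and Sprr2a3 held the same values on all 4 arrays, 7.03 and 8.48 in irradiated and 6.69 and 6.52 in control cells, a difference of 1.15. Sprr2b, by its own probe set, measured 3.82 and 3.70 in irradiated and 3.87 and 3.90 in control cells. These differences were not tested.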

How the results depend on the processing

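With 2 arrays a group, the single gene past the adjusted limma threshold was lost (0 genes) with the replicate number as a block and in each fit of 3 arrays; unadjusted p under 0.05 then held for 1705 genes with the block and for 381 to 5924 in fits of 3 arrays. The count past unadjusted p and 1.5-fold, 473, was 476 with the block, 92 at a fold of 2, and 315 to 1558 with 1 array left out. For listed epidermal genes it was 9, and it was 5 with genes below the median removed, 3 at a fold of 2 and 5 to 24 with 1 array left out. Without an irradiated array the spread comes from the control arrays and more genes can pass. The labels link same-numbered arrays by nothing but the number. Over genes, replicate 2 minus replicate 1 correlated at r = 0.068 between the groups, which cannot settle whether the arrays were paired. Over fits of 3 arrays the difference ran from 1.715 to 3.815 for Sprr1a, from 0.52 to 5.21 for Sprr1b and from 0.425 to 2.125 for Ivl, lowest without irradiated replicate 2 and highest without irradiated replicate 1. Quantile normalization and centring kept the direction of each member and gave 4 members above both controls in place of 3. The refits counted next kept the 1.5-fold threshold and leave out the fold of 2. The same holds for every call given above as kept or lost. Of 38 named list genes, 0 of 396 refits turned the direction of a call, 11 lost a call and 11 gained one.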

Other observations

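Promoters of the Sprr2 genes were searched for TGANTCA in the same way, after the values were seen. Of 10 Sprr2 genes with a RefSeq window, 7 held a match, where 6.75% of all 32850 windows did. The first match lay 193 to 198 bases before the start in each of the 7. Windows of near-identical copies are not independent observations. Sprr2h and Sprr2e, high in irradiated replicate 2, held 1 each, at 198 and 193 bases before the start. Sprr2b, which measured 3.82 and 3.70 in irradiated and 3.87 and 3.90 in control cells, held 1 at 195 bases, and Sprr2k, with a difference of 0.36, held 2. Sprr2a1, Sprr2a2 and Sprr2a3 held 0, while the probe sets that list them were higher in irradiated replicate 2. One of these probe sets also lists Sprr2b, and no association between motif and level was tested. The windows of Sprr2a1, Sprr2a2 and Sprr2a3 lack the stretch tataaa that those of the 7 hold near their end. Their listed starts may not correspond to those of the 7, so the 0 describes these windows alone. Prr9 held 1 match at 138 bases.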
